A study of Mus musculus with 11 samples.

Results

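A stretch of mouse chromosome 8 between 77 and 93 Mb (GRCm38) carries a dense run of variants in the exome of KPP-eGFP, and the genes holding them are described here. They were chosen by a measured value, the position of a deposited call inside this window, so the place and number of calls are a description and not a test. The rule takes 159 of the 621 variants of the series and 54 of its 304 genes. All 159 variants of chromosome 8 lie inside the window and 0 lie outside it, so there is no variant just beyond either end. The first 2 variants inside the window are in Arhgap10, at positions 77277172 (S668N) and 77409596 (M329T), and the last 2 in Lpcat2, at positions 92864952 (I75L) and 92865030 (N101D). Their mean culture frequencies were 0.465, 0.498, 0.491 and 0.483, in this order.

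KPP-eGFP is 1 clonal cell line derived from a primary pancreatic ductal adenocarcinoma of a genetically engineered mouse and given a fluorescent reporter with a PiggyBac transposon. Whole exomes were sequenced from 3 culture libraries (1-B, 2 and 2-B) and from 5 STAMP tumours, small tumours seeded from this line into laser-made pores in the skin of male host mice aged 8 to 12 weeks and taken 3 weeks after implantation. By the immune phenotype of the tumour, 2 libraries were immune-inflamed (1-3 and 2-1), 2 immune-excluded (1-4 and 2-2) and 1 immune-desert (2-3). 3 spleen libraries served as the normal reference and have no calls of their own. No source used here says that the libraries of a group come from separate cultures or mice, and a legend of the study calls biopsies pooled, so each p-value here rests on the variation among libraries, and that variation could be technical.

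Each variant has a variant allele frequency, the fraction of reads at its position that carry the alternate base. A variant on 1 of both copies of a chromosome in every cell is read near the middle of the scale, and a read from a host cell that lacks it lowers the fraction. Variants with a mean culture frequency from 0.25 to 0.75 are called heterozygous here. Many variants between inbred mouse strains are catalogued as polymorphisms under an rs number, and closely spaced ones can mark a stretch of chromosome from another strain. The origin of this segment was not tested. Read depth is unknown, so errors are spreads between libraries.

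The label of a heterozygous segment was checked against the frequencies. The mean culture frequency lay from 0.25 to 0.75 for 151 of the 159 variants, below for 6 and above for 2. Its median over the segment was 0.436, with quartiles of 0.386 and 0.484. Whether these variants act in the tumours cannot be read from an exome, so the word passenger was not tested.

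Of the 159 variants, 155 carried an rs number (97.5%, Wilson 95% interval 93.7 to 99.0). Among the 107 heterozygous variants outside the segment 52 did (48.6%, interval 39.3 to 58.0). The 4 variants without a number included Cacna1a R1797H and an insertion in Rtbdn written S231G232dup. Single-base variants numbered 146, of which 100 were transitions (68.5%, interval 60.6 to 75.5). Of the 339 single-base variants outside the segment without an rs number, 148 were transitions (43.7%, interval 38.5 to 49.0). This set holds variants of any frequency, unlike the 107, and leaves out catalogued variants, which the 146 include. It is thus not a comparison of place alone. The highest spleen fraction at any of the 159 positions was 0.0159, and it was above 0 at 7 positions.

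The sequences of the variants that the results turn on are shown with 20 bases of GRCm38 on each side, in the direction of the gene and 5′ to 3′. Capitals mark the reference codon, the changed base or the deleted bases.
Hhip N29S, chr8:80057409-80057451, minus strand, AAC to AGC: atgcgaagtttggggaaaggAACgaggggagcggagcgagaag
Calr splice region, chr8:84842920-84842960, minus strand: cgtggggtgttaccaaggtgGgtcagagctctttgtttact
Mylk3 W192R, chr8:85360464-85360506, minus strand, TGG to CGG: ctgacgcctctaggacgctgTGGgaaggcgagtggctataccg
Mylk3 A187P, chr8:85360479-85360521, minus strand, GCC to CCC: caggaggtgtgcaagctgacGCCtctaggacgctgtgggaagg
Adcy7 A150V, chr8:88309744-88309786, plus strand, GCA to GTA: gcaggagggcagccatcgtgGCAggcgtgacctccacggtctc
Adcy7 L937L939del, chr8:88326053-88326110, plus strand: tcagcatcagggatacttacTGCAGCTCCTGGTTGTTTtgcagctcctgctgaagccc
Nod2 T227A, chr8:88663725-88663767, plus strand, ACT to GCT: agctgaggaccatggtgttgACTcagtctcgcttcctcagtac
Nod2 Q255R, chr8:88663809-88663851, plus strand, CAG to CGG: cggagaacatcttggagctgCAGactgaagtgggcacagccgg
Nod2 E940Q, chr8:88675461-88675503, plus strand, GAA to CAA: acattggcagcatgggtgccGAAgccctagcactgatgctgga
The reference bases of 159 of 159 variants matched GRCm38, and of the 106 single-base variants with a stated protein effect, the 100 in protein-coding transcripts translated as stated. The other 6, in Gm6625 and Gm6658, were not checked.

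The variants fell into 5 runs separated by more than 1 Mb without a call. Run 1 (chr8:77277172-78246263) held 6 variants in 3 genes, run 2 (chr8:79281515-80506720) 10 in 5 genes, run 3 (chr8:84223359-86017501) 92 in 29 genes, run 4 (chr8:88309765-89147063) 19 in 6 genes and run 5 (chr8:90908340-92865030) 32 in 11 genes. The widest interval without a call, of 3717 kb between runs 2 and 3, contains 41 protein-coding genes of the annotation. The annotation places 141 protein-coding genes over the window, and 51 of them (36.2%) carry a variant.

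By effect, 100 variants were missense, in 42 genes, and 47 lay in an intron within the splice region only. Of the 100, 5 lie in Gm6625 and Gm6658, which the annotation does not type as protein-coding. There was 1 stop gained, E114* in Gm6625, which is annotated as a processed pseudogene. It was called in culture 2-B alone, at 0.323, and the 31 bases around it occur 10 times in the genome, so its reads cannot be placed with certainty. There were 3 variants at a splice acceptor, in Fbxw9, in the non-coding transcript Crnde and at the Adcy7 deletion. The Fbxw9 variant had a mean culture frequency of 0.364 and the Crnde variant 0.361. No frameshift was among the listed effects, and no synonymous or intron variant away from a splice site or splice region. The mix of effects, the share of genes with a variant and the intervals without a call therefore describe the deposited calls. They do not describe all sequence differences of the segment. Mylk3, the myosin light chain kinase of heart muscle, held 20 variants, of which 17 were missense, and Trmt1, a methyltransferase of transfer RNA, held 7. Cacna1a, Man2b1, Chd9 and Rpgrip1l held 6 each, and Rtbdn, Hook2, Adcy7 and Nod2 held 5 each. These 10 genes held 71 of the 159 variants, whereas 13 genes held 1.

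**Figure D1:**
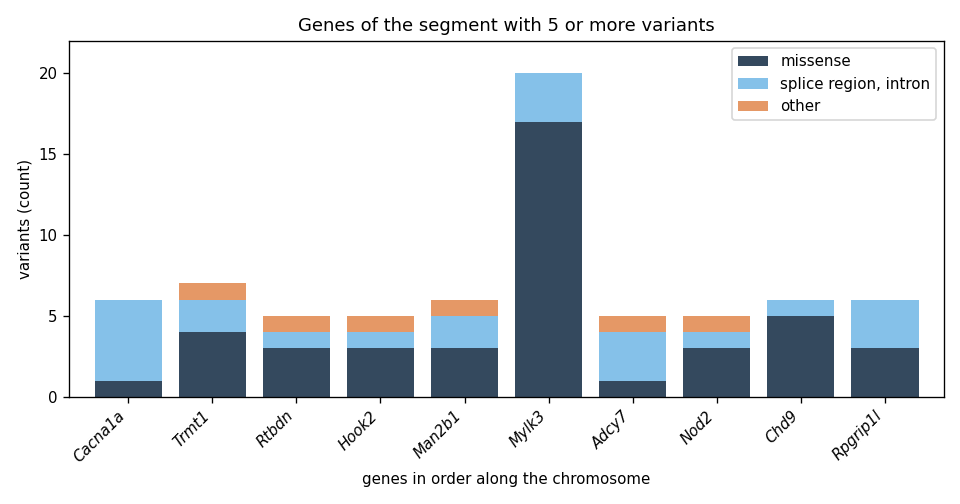
Number of variants (vertical axis, count) in each of the 10 genes with 5 or more variants, in order along the chromosome, coloured by effect. Mylk3 stands at 20 and the other genes between 5 and 7.

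The frequency was level along the segment in the culture. Its median was 0.435 in culture 1-B (146 called), 0.429 in culture 2 (154 called) and 0.439 in culture 2-B (156 called). The median of the mean culture frequency was 0.440 in run 1, 0.425 in run 2, 0.436 in run 3, 0.416 in run 4 and 0.458 in run 5. Over the variants of each library, Spearman's correlation with position lay between -0.07 and -0.01 in the culture and between -0.21 and 0.04 in the tumours, as a description across variants that share reads and libraries. The SD over the 3 culture libraries had a median of 0.048 over 145 variants called in all 3.

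**Figure D2:**
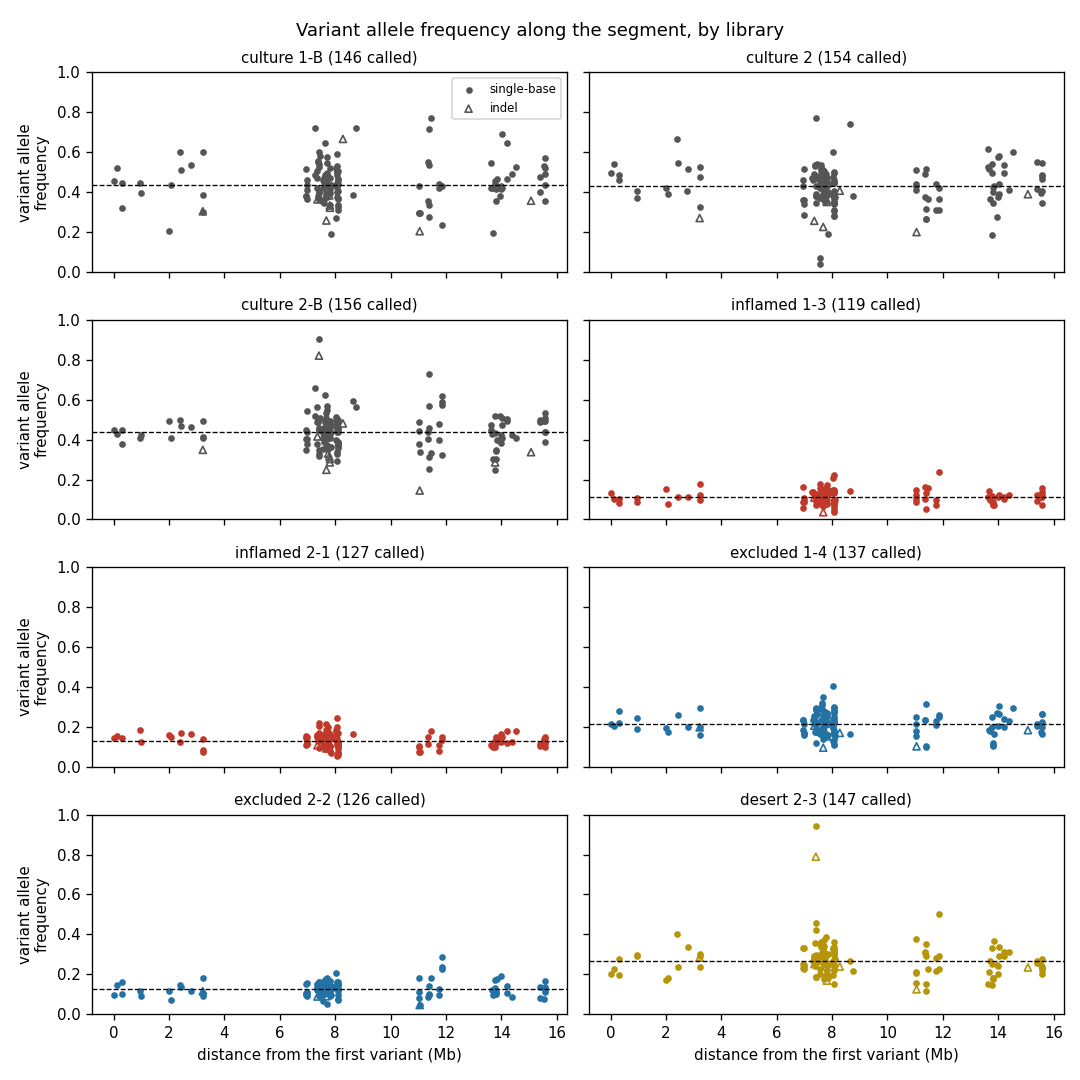
Variant allele frequency (vertical axis, fraction of reads) against the distance from the first variant (horizontal axis, Mb) in the 8 libraries, with filled points for single-base variants, triangles for indels and a dashed line at the library's median. Culture medians lie between 0.429 and 0.439 and tumour medians between 0.113 and 0.266.

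Neighbouring variants within a read length of 75 bases had close mean culture frequencies. For the 17 such pairs called in all 3 culture libraries the median absolute difference was 0.0147, and for the 117 pairs of neighbours farther apart it was 0.0548. Trmt1 S45F and W46C are such a pair. S45F was at 0.367, 0.472 and 0.451 in cultures 1-B, 2 and 2-B, and W46C at 0.367, 0.482 and 0.460. These variants share reads and are not independent measurements.

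In the tumours every median was lower. It was 0.113 in immune-inflamed 1-3, 0.130 in immune-inflamed 2-1, 0.215 in immune-excluded 1-4, 0.126 in immune-excluded 2-2 and 0.266 in immune-desert 2-3. Of the 105 variants called in all 8 libraries, 99 had their highest tumour value below their lowest culture value. The immune-desert tumour was the highest tumour at 93 of the 105. Both counts were made in the segment only, so no such count over the exome stands beside them. Over the whole exome, limma without scaling called 255 of the 258 variants called in all 8 libraries lower in the tumours. The median ratio to culture over these 258 was also highest in the immune-desert tumour, at 0.627. Lower frequencies in the tumours, and the highest of these in the immune-desert tumour, are therefore not particular to the segment. The median of immune-excluded 2-2 lay between those of both immune-inflamed tumours, and that of immune-excluded 1-4 lay above them, so the phenotypes overlapped. In bulk tumours a smaller share of KPP-eGFP cells and a smaller share of the allele within those cells cannot be told apart from these values alone.

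Nod2, Calr, Hhip and Adcy7 are the genes of immune or signalling function that the rule names. Nod2 is a cytosolic sensor of bacterial cell wall fragments that activates NF-κB. Its T227A was at 0.536, 0.516 and 0.569 in cultures 1-B, 2 and 2-B, a mean of 0.540 ± 0.027 (SD, n = 3), and of the tumours was called in immune-desert 2-3 alone, at 0.292. That tumour had the most segment variants called of the tumours, at 147 of 159. E940Q was at 0.333, 0.268 and 0.313 in the culture and at 0.052, 0.103, 0.097 and 0.152 in immune-inflamed 1-3, immune-excluded 1-4, immune-excluded 2-2 and immune-desert 2-3. Every tumour in which it was called lay below every culture library, as at most segment variants called in all libraries. Q255R was called in culture 2-B alone, at 0.727, and in 0 tumours. A splice-region variant 3 bases after an exon was at 0.719, 0.264 and 0.460 in the culture (SD 0.228, n = 3), and L929L was at 0.281 ± 0.031 (SD, n = 3).

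Hhip binds hedgehog ligands at the cell surface and restrains their signal. Its N29S, in a coding exon, was at 0.538, 0.516 and 0.465 in the culture. In the tumours it was at 0.113 and 0.164 in the immune-inflamed pair, 0.201 and 0.118 in the immune-excluded pair and 0.337 in the immune-desert library. The groups of culture and tumours did not overlap, as at 99 of the 105 segment variants called in all 8 libraries. A second variant, 8 bases after an exon, was called in culture 2 alone, at 0.405.

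Calr encodes calreticulin, a chaperone of the endoplasmic reticulum that helps load MHC class I. Its 1 variant lies in an intron, 4 bases after an exon, so no protein change was called. It was at 0.421, 0.420 and 0.434 in the culture, at 0.1 and 0.161 in the immune-inflamed tumours, at 0.292 and 0.164 in the immune-excluded tumours and at 0.35 in the immune-desert tumour. Culture and tumours did not overlap, as at most segment variants called in all libraries. The lower immune-excluded and the higher immune-inflamed value lay next to each other.

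Adcy7 is an adenylyl cyclase, which makes cyclic AMP. A150V was at 0.295, 0.430 and 0.445 in the culture and between 0.081 and 0.248 in the 5 tumours. Its deletion of 18 bases, labelled as reaching a splice acceptor, was at 0.205, 0.200 and 0.145 in the culture. The deletion was called in 3 tumours, at 0.103 in immune-excluded 1-4, 0.047 in immune-excluded 2-2 and 0.125 in immune-desert 2-3. Its mean of 0.183 ± 0.033 (SD, n = 3) was below 0.25, unlike the other 4 Adcy7 variants, whose mean culture frequencies were 0.348 to 0.433.

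**Figure D3:**
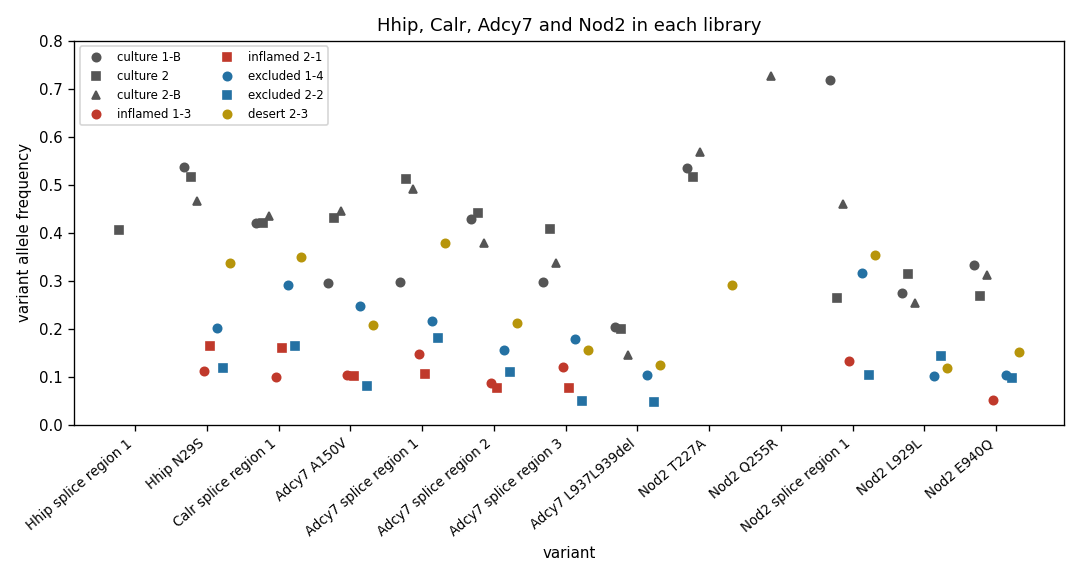
Variant allele frequency (vertical axis, fraction of reads) of each variant of Hhip, Calr, Adcy7 and Nod2 in the 8 libraries, 1 point a library where it was called. Hhip N29S lies between 0.465 and 0.538 in the culture and between 0.113 and 0.337 in the tumours.

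The carriers in 4 lists of genes are read beside the 51 of 141 protein-coding genes of the window (36.2%) that carry a variant. Of all 54 genes of the segment with a variant, 42 carried a missense one, so a protein change in most carriers is not particular to a list. Of 14 genes of innate immunity and inflammation in the window, 5 carried a variant and 3 a protein-changing one. The carriers were Nod2, Calr, Cyld (a deubiquitinase that restrains NF-κB), Snx20 and Rnaseh2a (the catalytic subunit of RNase H2), while Il15, Il27ra, Junb and 6 others had no call. Of 20 genes of receptors and signalling in the window, 6 carried one, 4 of them with a protein change. They were Hhip, Adcy7, Smad1 (a transducer of BMP signals), Cacna1a (a calcium channel subunit), Mylk3 and Phkb. Of 18 genes of transcription and chromatin, 7 carried one, all 7 with a protein change: Klf1, Lyl1, Sall1, Chd9, Rbl2, Irx3 and Irx6. Of 17 genes of metabolism, translation and protein handling, 9 carried one, 7 of them with a protein change. Gcdh, Fto, Lpcat2, Trmt1, Farsa and Fbxw9 were among these 7, while the carriers Dnaja2 and Mmp2 had no protein change. Median mean culture frequencies of the lists lay between 0.432 and 0.474, beside 0.436 for the segment. In the comparison of tumours with culture described below, 0 of 5, 1 of 24, 0 of 13 and 0 of 16 tested variants of these lists, in the order given, passed the test, beside 21 of 258 (8.14%) over the exome. Their median scaled differences of tumours minus culture were 0.04, 0.02, -0.02 and -0.01, beside 0.01 over all 258.

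Among the other immune genes, Snx20 P39S, in a sorting nexin, was at 0.357, 0.375 and 0.438 in the culture and between 0.086 and 0.305 in the 5 tumours. Rnaseh2a H157R was at 0.438, 0.484 and 0.500 in the culture and between 0.104 and 0.351 in the tumours. The Cyld variant, in an intron 4 bases before an exon, was at 0.769, 0.364 and 0.333 in the culture, so its culture libraries differed from each other (SD 0.243) by more than those of most variants. It was called in 4 tumours, between 0.158 and 0.227.

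Among transcription and chromatin genes, Klf1 T305S, in a factor of red cell development, was at 0.373, 0.505 and 0.486 in the culture and between 0.110 and 0.35 in the tumours. Rbl2, which encodes the pocket protein p130, held T428S, S431T and R443Q within a stretch shorter than a read. Their mean culture frequencies were 0.392, 0.395 and 0.334, and their tumour means 0.119, 0.117 and 0.129. Chd9, a chromatin remodelling helicase, ranged from 0.219 at P2412S, among the 5 lowest of the segment, to 0.485 at P2055L.

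Near the low end of the culture stood the Adcy7 deletion, Chd9 P2412S and the Rtbdn insertion, the last at 0.244 ± 0.017 (SD, n = 3). At the high end, below both Trmt1 variants, stood Nod2 Q255R at 0.727, a splice-region variant of Cacna1a at 0.690 and Rpgrip1l T268M at 0.595.

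Indels were read lower and called less often than single-base variants. The 13 indels had a median mean culture frequency of 0.345, and the 146 single-base variants 0.440. In immune-inflamed 1-3, 3 of 13 indels (23.1%) and 116 of 146 single-base variants (79.5%) were called, and in immune-desert 2-3 11 of 13 (84.6%) and 136 of 146 (93.2%). Variants called in 0 tumours numbered 9, and 105 were called in all 5. Of the 9, 6 were called in 1 culture library only.

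The immune-desert tumour had the most calls of the tumours, at 147 of the 159 segment variants and 84.1% of the heterozygous variants elsewhere. Variants called in 1 tumour phenotype alone were counted in the segment only, so no share over the exome stands beside them. Of these 7 variants, 5 were in the immune-desert tumour: a pair in Trmt1, Phkb (splice region), Nod2 T227A and Lpcat2 I75L. The other two were in the immune-inflamed tumour 1-3, Cacna1a (splice region) and Gm6658 P26S. Both Trmt1 variants, 7 and 8 bases after an exon, had the highest mean culture frequencies of the segment. These were 0.821, from culture 2-B alone, and 0.838, from cultures 2 and 2-B. The variants, at positions 84689380 and 84689384 in a repeat of GGTG, lie within a read length and are not independent measurements. They were read in the immune-desert tumour at 0.789 and 0.941, unlike the segment's median there of 0.266.

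To ask whether any variant moved apart from the rest, each tumour was scaled by its median ratio to the culture over the 258 variants called in all 8 libraries, and limma was fitted to the scaled fractions. Between tumours and culture, 21 of 258 passed an adjusted p of 0.05 (8.14%), and 1 of the 105 in the segment did. That variant was Mylk3 W192R. It was at 0.327, 0.345 and 0.370 in the culture. In the tumours it was at 0.049 and 0.059 in the immune-inflamed pair, 0.111 and 0.071 in the immune-excluded pair and 0.152 in the immune-desert library. After scaling, the 5 tumours lay between 0.201 and 0.256, below every culture library. The scaled difference of tumours minus culture was -0.12 ± 0.03 (SE), with an adjusted p of 0.00995 by limma. The call was not made without culture 2-B (smallest adjusted p of the segment 0.0741 by limma), and W192R was a tier 2 call in culture 2-B, so it is not among the 53 segment variants with tier 1 calls in all 8 libraries, of which 0 passed. A187P, 15 bases away, had a scaled difference of -0.10 ± 0.04 (SE) with an adjusted p of 0.153 by limma. Mylk3 N175K, also within a read length of W192R, had a scaled difference of -0.04 ± 0.04 (SE) with an adjusted p of 0.662 by limma. Variants this close share reads and are not independent measurements.

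Between immune-inflamed and immune-excluded tumours 0 of 258 passed (0%), and 10 of the 105 segment variants (9.52%) had an unadjusted p under 0.05, beside 38 of all 258 (14.7%). The smallest adjusted p of the segment was 0.220 by limma, for Gadd45gip1 P71L, whose product is a mitochondrial ribosome protein. P71L was at 0.178 and 0.153 in the immune-inflamed and 0.165 and 0.099 in the immune-excluded tumours. Without immune-inflamed 2-1 only 1 immune-inflamed library is left, and the calls of that fit changed with array weights. Between the immune-desert tumour and the other phenotypes 0 of 258 passed (0%), and 2 of the segment's 105 (1.90%) had an unadjusted p under 0.05, beside 18 of all 258 (6.98%). With a weight that lets culture and tumours differ in spread, limma called 0 in both comparisons. The immune-desert phenotype is 1 library, so its spread is taken from the others.

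The segment was then set against the 107 heterozygous variants elsewhere in the exome, of which 63 lie on chromosome 4. The median ratio of tumour to culture was 0.243 in the segment and 0.279 elsewhere in immune-inflamed 1-3, 0.310 and 0.289 in immune-inflamed 2-1, 0.495 and 0.503 in immune-excluded 1-4, 0.289 and 0.273 in immune-excluded 2-2, and 0.622 and 0.598 in immune-desert 2-3. The log2 ratio of segment over elsewhere averaged 0.0040 ± 0.12 (SD, n = 5) and ranged from -0.20 to 0.10, above 0 in 3 tumours and below it in 2 (exact two-sided sign-flip test, p = 1, Benjamini-Hochberg p = 1 over 2 tests).

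The share of heterozygous variants called in a tumour was higher in the segment in 5 of 5 tumours. It was 77.5% against 64.5% in immune-inflamed 1-3, 82.1% against 73.8% in immune-inflamed 2-1, 88.7% against 81.3% in immune-excluded 1-4, 81.5% against 68.2% in immune-excluded 2-2 and 93.4% against 84.1% in immune-desert 2-3. The difference averaged 10.2 percentage points ± 2.70 (SD, n = 5). The exact two-sided sign-flip test gave p = 0.0625, the smallest that 5 tumours allow, and 0.125 after Benjamini-Hochberg adjustment over 2 tests. Against the 63 variants of chromosome 4 the difference was 15.1 points, and against the 39 outside chromosomes 4, 6 and 8 it was 2.58 points. Over variants called in all 3 culture libraries it was 4.90 points. These were 142 of the 151 heterozygous variants in the segment and 91 of the 107 elsewhere. Calling was thus also more complete for the segment in the culture.

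**Figure D4:**
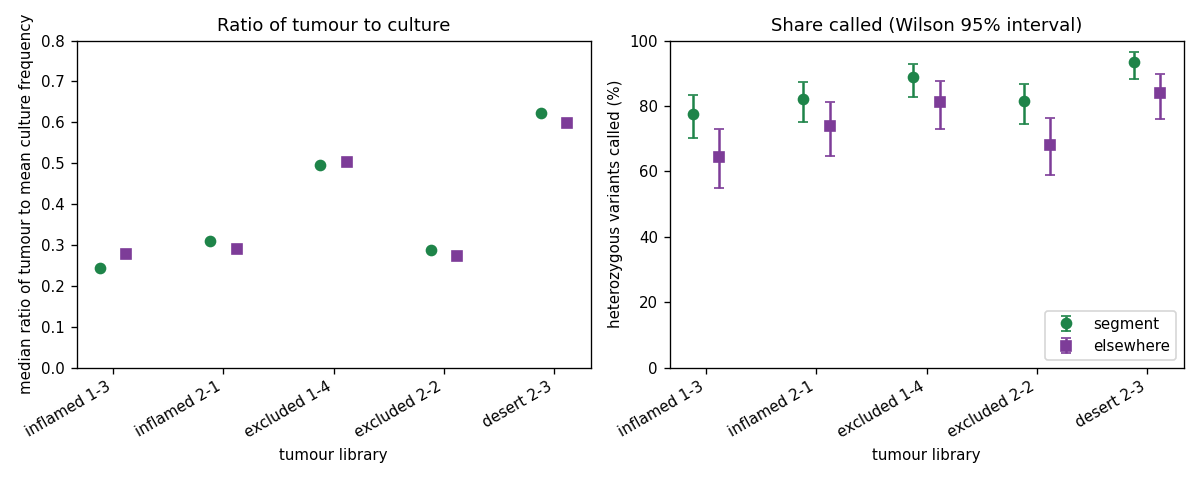
Left, the median ratio of tumour to mean culture frequency, and right, the percentage of heterozygous variants called with Wilson 95% intervals, for the segment (circles) and the rest of the exome (squares) in the 5 tumours. The share called is higher in the segment in all 5, from 77.5% against 64.5% in immune-inflamed 1-3 to 93.4% against 84.1% in immune-desert 2-3.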

How the data were processed

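Whole exomes were captured and sequenced as 75-base read pairs. For this, the authors aligned reads to GRCm38 using BWA with default settings, followed the GATK best practices for realignment and duplicate marking, and ran Strelka with the spleen as normal. Tool versions are not given in the sources. Tumour calls were restricted to variants of the cell line. Deposited for every call were 2 fractions, the variant allele frequency in the library and that in the spleen, and the tier that Strelka assigned. No depth (0 columns used) is available here, so intervals cover only shares of variants. The extraction protocol in the labels describes RNA although the material is given as genomic DNA.

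The members and gene lists were chosen with earlier results of these data known. The genes named are Hhip, Calr, Adcy7 and Nod2, listed genes with a variant, the 10 genes with most variants, stop, frameshift or splice-site variants, variants past a threshold, the 5 highest and 5 lowest in culture, the variants at the ends of the window, and those of 1 tumour phenotype. Some items that this rule selects are not reported here. Variants were placed in GENCODE M21.

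Scaled fractions were fitted in limma by lmFit and by eBayes with a trend, p-values were adjusted by Benjamini-Hochberg, and the model had 4 groups, or culture and tumours as 2. After scaling, tumours had a pooled SD of 0.138 over 258 variants and culture 0.0465. The fits were tested on simulated data with these spreads. There the shared spread made false calls between tumour phenotypes more often than the threshold allows and missed more changes between tumours and culture, and array weights with a spread for each lowered the former. The fit with a shared spread stayed the main one, as fixed. Alternatives were no scaling, other scaling, log2, array weights, filters, omission of each library and a replicate block; 2 combinations with array weights were chosen after seeing the data. Software was limma 3.58.1 in R 4.3.3, and scipy 1.17.1, numpy 2.4.6, pandas 2.3.3, numba 0.67.0 and matplotlib 3.10.9 in Python 3.11.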

Additional observations from a re-analysis of the deposited data

Results flagged for a closer look

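Rpgrip1l Y808H, in a gene of the ciliary transition zone, had 1 tumour far from the others after scaling. Its scaled frequency was 0.693 in immune-excluded 2-2 and between 0.389 and 0.461 in the other 4 tumours. It was the only 1 of 75 sets of 5 tumours tested in this way that stood apart, where chance gives about 1 in 20.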

How the results depend on the processing

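Between tumours and culture the segment count of 1 became 105 of 105 with no scaling, beside 255 of 258 over the exome. It was 0 of the 53 variants with tier 1 calls in all 8 libraries, beside 13 of 132. With array weights and without culture 2-B, an alternative chosen after seeing the data, it was 3, beside 27 of 258. It ranged from 0 to 2 when 1 library was left out. It was 0 without culture 2-B, beside 18 of 258 over the exome. It was 2 without immune-inflamed 1-3 (Calr and Mylk3) and 2 without the immune-desert tumour (both Mylk3), each beside 26 of 258. Over all 258 variants, array weights raised the calls from 21 to 38. Between immune-inflamed and immune-excluded tumours the count moved only without immune-inflamed 2-1, which leaves 1 immune-inflamed library. The median scaled difference in that fit was -0.0013 in the segment and 6.5e-05 over all 258. The replicate block on the first number of the tumour name gave 0 in the segment and 10 of 258 in all, and the labels do not say what that number means. For the immune-desert tumour it was 39 with no scaling; without that tumour no value exists. The log2 ratio of segment over elsewhere, 0.0040, changed sign to -0.080 against variants outside chromosomes 4, 6 and 8, -0.086 with culture frequencies from 0.35 to 0.65, -0.0023 with tier 1 calls and -0.024 with variants called in all 8 libraries, and lay between -0.020 and 0.054 with 1 tumour left out. The difference in share called kept its sign in all 11 alternatives, from 2.58 to 15.1 points. The cause of these changes was not tested. Unknown depth limits what a missing call means.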
